A study of Mus musculus with 6 samples.

Results

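Divergent protein-coding promoters are stretches of DNA from which 2 protein-coding genes are read in opposite directions. They were taken from the GENCODE annotation of the mouse genome build GRCm38 as gene pairs on opposite strands whose outermost transcription start sites (TSSs) lie head to head, at most 1000 bp apart, with no overlap between the genes. This gave 754 pairs, which hold 1487 of 21938 protein-coding genes (6.78%). Each pair was described by a window from 500 bp left of the left TSS to 500 bp right of the right TSS, and the 20439 other protein-coding promoters by a window of 500 bp on either side of the TSS, so that 754 of 21193 promoters in all were divergent. The windows of some pairs overlap, and they merge into 733 separate stretches. In all, 21 genes stand in more than 1 pair. Positions and distances come from the annotation and not from these samples.

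H3K27ac, acetylation of histone H3 at lysine 27, was profiled by chromatin immunoprecipitation and sequencing in whole retinas of 3-month-old wild-type mice. In the 4xIOP group the intraocular pressure of an eye had been raised to 30 mmHg for 1 h, 4 times, at intervals of 2 weeks, and the contralateral eyes served as control. Retinas were taken on day 2 after the 4th elevation, and the treatment labels of these samples name no drug. Each of the 6 samples (3 control, 3 4xIOP) is represented by a peak list called on that sample alone, and these lists are the replicates. The comparison of groups asked whether repeated pressure elevation changed the mark.

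Groups were taken from the sample labels. In 4 of the 6 samples the name carried by the deposited list was of the other group (replicates 1 and 2 of both groups), and in 2 it was that of the label (replicate 3 of both groups). The samples were not regrouped, and every difference between groups below is a difference between the labelled groups. The lists held 16195 to 36509 peaks, with 36509 in control 3 and at most 21893 in any other list. Control 3 therefore stood apart, and results that rest on it are given with and without it. A peak list says where a peak was called, and a window without a peak can still carry the mark below the calling threshold. Of 8 photoreceptor genes, 7 had a promoter peak in all 6 lists, and the remaining gene, Crx, had one in 5. None of the 4 microglial, 4 pigment epithelial, 4 endothelial or 4 muscle markers had a peak in any list. Of 4 ganglion cell markers, 3 had none. In bulk tissue, fewer cells of a type and less of the mark per cell cannot be told apart.

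Head-to-head promoters are common in mammalian genomes. They are known to be rich in CpG dinucleotides, mostly without a TATA box, and to serve many housekeeping genes, among them genes of DNA repair, mitochondria and histones. In such a promoter the nucleosomes that can be acetylated lie mainly inside the genes on either side, while the DNA between the start sites is often free of nucleosomes. H3K27ac is laid down by the acetyltransferases CBP and p300 and marks active promoters and enhancers.

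The stretches between the start sites show how short these shared promoters are. Shown are 4 pairs from textbook examples, 1 of the most strongly enriched pairs and 2 of the pairs with the smallest p in the comparison of groups. All are read 5′ to 3′ on the plus strand of GRCm38, from the base after the left TSS to the base before the right TSS. Capitals mark matches on either strand to the 8 motifs searched, which were the TATA box (TATAAA), NF-Y (CCAAT), ETS (CCGGAAG), NRF1 (CGCATGCG), SP1 (GGGCGG), CRE (TGACGTCA), YY1 (AAGATGG) and the E-box (CACGTG).
Col4a4/Col4a3, chr1:82586850-82586920: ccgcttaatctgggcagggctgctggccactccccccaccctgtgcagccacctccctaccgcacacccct
Mrps12/Sars2, chr7:28741821-28741991: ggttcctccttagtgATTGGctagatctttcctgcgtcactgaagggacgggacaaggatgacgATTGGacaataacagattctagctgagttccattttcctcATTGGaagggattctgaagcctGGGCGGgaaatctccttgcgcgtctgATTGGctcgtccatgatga
Brca1/Nbr1, chr11:101551956-101552148: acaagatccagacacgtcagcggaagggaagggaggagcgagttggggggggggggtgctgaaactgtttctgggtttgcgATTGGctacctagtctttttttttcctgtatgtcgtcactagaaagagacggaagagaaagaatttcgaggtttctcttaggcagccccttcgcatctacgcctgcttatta
Tsc2/Nthl1, chr17:24632631-24632679: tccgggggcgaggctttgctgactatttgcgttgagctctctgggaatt
Gm17657/Tbc1d22b, chr17:29549639-29549784: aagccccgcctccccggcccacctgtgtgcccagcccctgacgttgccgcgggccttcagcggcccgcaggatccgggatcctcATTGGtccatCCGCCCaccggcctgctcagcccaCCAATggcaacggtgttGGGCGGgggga
Faap24/Cep89, chr7:35396837-35397034: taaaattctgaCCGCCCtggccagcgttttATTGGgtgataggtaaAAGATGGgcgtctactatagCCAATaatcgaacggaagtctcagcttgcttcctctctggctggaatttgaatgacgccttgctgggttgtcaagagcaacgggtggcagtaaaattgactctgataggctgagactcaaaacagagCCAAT
Fbxl6/Slc52a2, chr15:76538747-76538831: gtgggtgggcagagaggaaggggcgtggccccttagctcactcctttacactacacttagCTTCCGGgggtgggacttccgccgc

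The intervals printed above ran from 49 bp at Tsc2/Nthl1 to 198 bp at Faap24/Cep89. The interval of Mrps12/Sars2, genes of a mitochondrial ribosomal protein and of the mitochondrial seryl-tRNA synthetase, held 4 NF-Y matches and 1 SP1 match. That of Faap24/Cep89 held 3 NF-Y matches, 1 SP1 match and 1 YY1 match. No motif of the 8 was matched between Col4a4 and Col4a3 or between Tsc2 and Nthl1. A match is a match of letters only, and its absence says only that these letters are not in the interval.

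Over all pairs, the distance between the start sites had a median of 129.5 bp (interquartile range 67 to 240, range 1 to 987). The ratio of observed to expected CpG dinucleotides had a median of 0.761 in the windows of the pairs and of 0.512 in those of other promoters. Windows with over 50% GC and a CpG ratio over 0.6, called CpG island-like here, made up 83.0% of divergent and 41.6% of other promoters. In the 300 bp centred between the start sites, the ETS motif was found in 27.98% of pairs, against 10.4% in the 300 bp centred on the TSS of other promoters and 11.1% over all promoters. SP1 was found in 68.0% against 43.8% (44.7% over all), and NF-Y in 45.1% against 36.2% (36.5% over all). NRF1 was found in 5.04% against 2.02% (2.12% over all), CRE in 4.38% against 2.19% (2.27% over all), YY1 in 10.7% against 6.60% (6.75% over all) and the E-box in 10.7% against 7.14% (7.27% over all). The TATA box went the other way, with 4.38% of pairs against 11.2% of other promoters (10.9% over all). These shares describe the genome sequence and were not tested.

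Divergent promoters carried an H3K27ac peak far more often than other protein-coding promoters. A peak overlapped the window in 88.2%, 84.0% and 93.2% of pairs in control replicates 1 to 3 and in 86.3%, 85.4% and 85.3% in the 4xIOP replicates. Other promoters had a peak in 40.02%, 38.1% and 48.4% in the control lists and in 38.8%, 36.7% and 36.2% in the 4xIOP lists. The lowest list for the pairs was thus far above the highest for the others. The difference was 47.4 ± 1.67 percentage points (SD, n = 6 lists), ranged from 44.8 to 49.1 and was above 0 in 6 of 6 lists (two-sided exact sign-flip permutation test, p = 0.031, the smallest that 6 lists allow). In all, 579 pairs (76.8%) had a peak in all 6 lists against 30.9% of other promoters, and 50 pairs (6.63%) had none in any list against 51.0%.

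A pair holds the first stretch of 2 genes, so the same count was made gene by gene, in the 500 bp from each TSS into its own gene. This comparison was added after the data were seen. A peak lay there in 68.3% ± 9.37 of the genes of pairs and in 37.5% ± 5.00 of other genes (SD, n = 6 lists). The difference of 30.8 percentage points (26.1 to 38.8) was above 0 in 6 of 6 lists (exact sign-flip permutation test, p = 0.031). It was smaller than that of the whole windows and still several times the spread between lists.

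**Figure D1:**
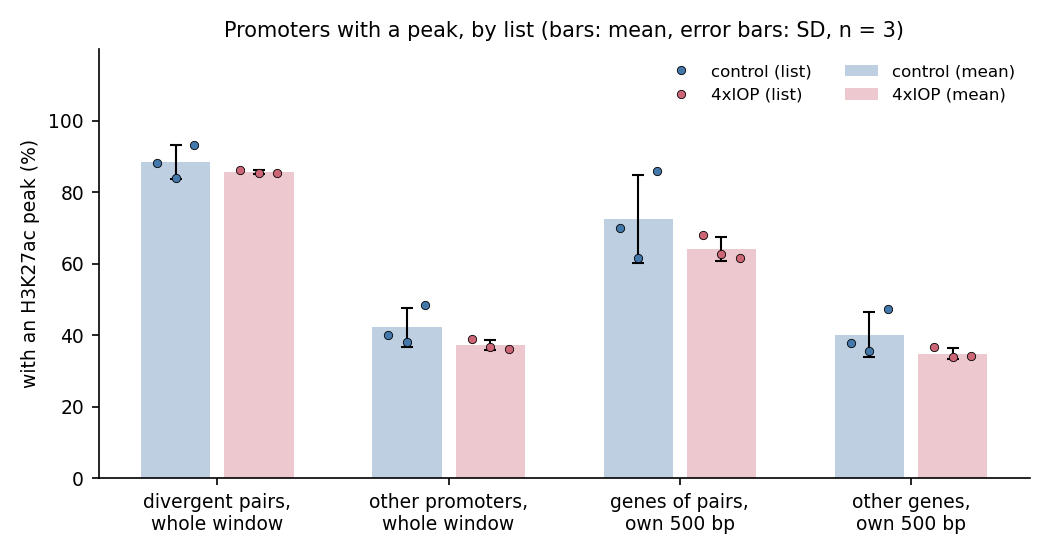
Share of promoters (left pairs of bars, whole window) and of genes (right pairs of bars, first 500 bp of the gene) with an H3K27ac peak, in percent. Points are the 6 lists, bars the mean of 3 control or 3 4xIOP lists and error bars the SD. The pairs lie between 84.0% and 93.2% and the other promoters between 36.2% and 48.4%, while the points of the 2 groups overlap.

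The difference between promoter classes was present among CpG island-like windows and among the rest. With island-like windows only, 93.1% ± 2.98 of 626 pairs and 75.3% ± 6.31 of 8508 other promoters had a peak, a difference of 17.8 points (11.1 to 21.3). Without them, 57.7% ± 5.17 of 128 pairs and 14.3% ± 3.21 of 11931 other promoters had one, a difference of 43.4 points (41.0 to 46.6). Both differences were above 0 in all 6 lists (SD over n = 6 lists; exact sign-flip permutation test, p = 0.031 each).

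Other promoters were divided, after the data were seen, by what lies upstream. All classes were scored in windows of 500 bp on either side of a centre, which was the TSS or, where there was a partner, the point between the start sites. Divergent coding pairs had a peak in 85.7% ± 3.99. Coding genes whose 5′ ends overlap those of a coding gene on the other strand, which the rule left out, had one in 83.5% ± 4.40 of 883 promoters, counted gene by gene. Genes head to head with a long noncoding RNA gene had one in 65.5% ± 4.73 of 686, and genes with no head-to-head partner in 36.7% ± 4.48 of 18870 (all SD, n = 6 lists). The pairs were higher by 2.14, 20.2 and 48.9 percentage points, each in 6 of 6 lists (exact sign-flip permutation test, p = 0.031 for each of 3 comparisons, 0.031 also after Benjamini-Hochberg adjustment). The step to coding pairs with overlapping 5′ ends was smaller than the spread of either class between lists.

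**Figure D2:**
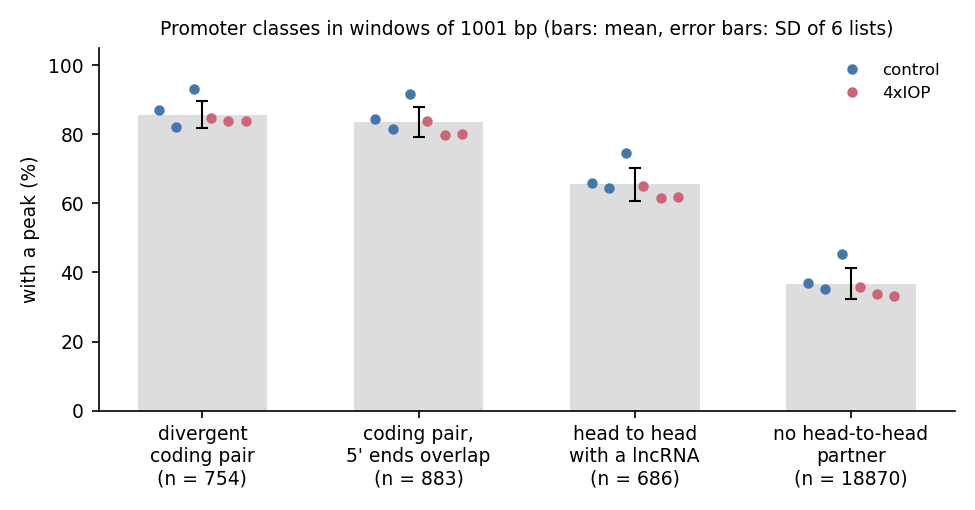
Share of promoters with a peak (%) in windows of equal length for 4 classes of protein-coding promoter. Bars are means and error bars SDs over 6 lists, points the single lists. The class means fall from 85.7% in divergent coding pairs and 83.5% in coding pairs with overlapping 5′ ends to 65.5% with a lncRNA partner and 36.7% with no partner.

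Where a peak was called, its strength at divergent promoters was only slightly above that at other promoters. Strength was read as the percentile, within its own list, of the highest fold enrichment over local background in the window. The median percentile of marked pairs was 77.5, 76.5 and 87.5 in the control lists and 78.0, 77.5 and 71.2 in the 4xIOP lists. That of other marked promoters was 74.98, 73.3 and 82.4 in control and 73.9, 74.9 and 69.5 in 4xIOP. The difference was 3.21 ± 1.20 percentile points (SD, n = 6 lists, 1.76 to 5.06) and was above 0 in 6 of 6 lists (exact sign-flip permutation test, p = 0.031). It was smaller in CpG island-like windows (1.98), for equal-sized lists (1.81) and for peaks with a −log10 q of at least 5 (1.61), with the same exact p.

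The strongest pair on average was Ptcd3/Polr1a, which joins a mitochondrial pentatricopeptide repeat protein and the largest subunit of RNA polymerase I. Its fold enrichment was 14.4, 14.3 and 14.1 in the control lists and 10.3, 13.1 and 12.5 in the 4xIOP lists, for a mean percentile of 99.8. Rad17/Taf9, of a DNA damage checkpoint protein and a TFIID subunit, had a fold of 11.1, 11.8 and 12.8 in control and of 11.9, 8.66 and 10.8 in 4xIOP (mean percentile 99.5). Gm17657/Tbc1d22b followed with 11.2, 8.88 and 14.0 in control and 9.88, 10.2 and 9.29 in 4xIOP (mean percentile 99.3). Brd8/Kif20a, of a bromodomain protein and a mitotic kinesin, and Cep76/Psmg2, of a centrosomal protein and a proteasome assembly chaperone, had mean percentiles of 99.2 and 99.1. The control and 4xIOP values of Rad17/Taf9 and Gm17657/Tbc1d22b overlapped, and those of Ptcd3/Polr1a did not. Fold enrichment is not directly comparable between lists, and limma called no pair in the comparison of groups below. These pairs were named for their level, which is a description.

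The mark flanked the start sites and was sparse between them. In the profile around the TSS, peak coverage of genes of divergent pairs was 17.7% in the 50 bp upstream of the TSS (9.32 to 34.3 over the 6 lists). It rose to 60.5% at 225 bp into the gene (52.6 to 81.8), and on the partner's side to 54.1% at 375 bp upstream (44.6 to 77.1). Other genes reached 32.8% at 225 bp into the gene (28.6 to 43.2) and 14.8% at 275 bp upstream (9.22 to 25.3). Their coverage also dipped, to 11.6% in the 50 bp upstream of the TSS (6.81 to 21.6), so the dip was not particular to pairs. Further inside the gene the curves crossed, and from 775 bp on the mean for genes of pairs was below that for other genes. At 825 bp coverage was 7.70% for genes of pairs and 9.03% for other genes, and at 1025 bp 3.80% and 4.91%. The highest summit of the window lay between the start sites in 4.19% to 5.69% of marked pairs, and its median position was 219 to 250 bp into one of the genes.

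**Figure D3:**
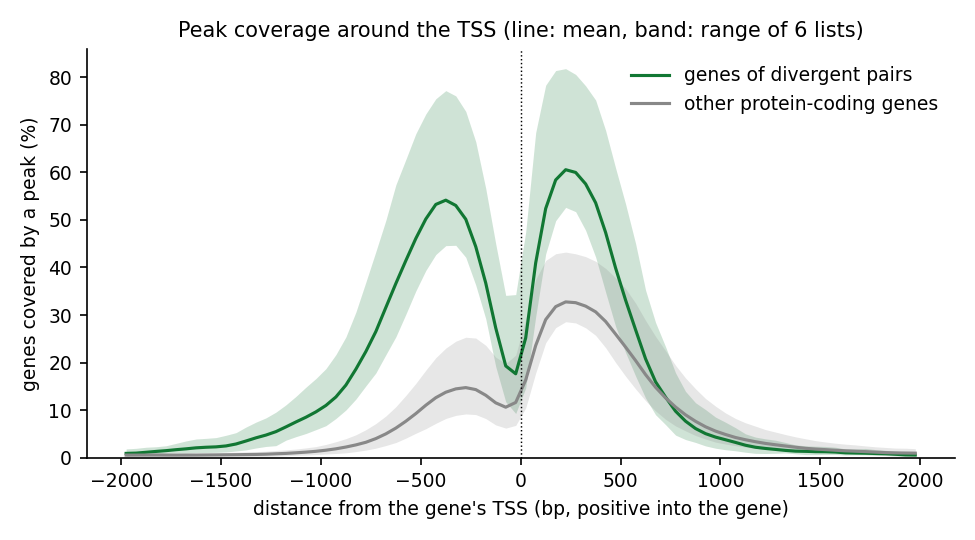
Percent of genes covered by an H3K27ac peak against the distance from the TSS in bp (positive into the gene). Lines are means and bands the range of 6 lists. Genes of divergent pairs have a peak of coverage on both sides of the TSS (60.5% at 225 bp, 54.1% at -375 bp), and other genes mainly one inside the gene (32.8% at 225 bp, 14.8% at -275 bp).

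Over the 1000 bp upstream of the TSS, peaks covered 33.4% ± 9.32 of the bases at genes of pairs and 8.62% ± 3.41 at other genes. Over the 1000 bp downstream they covered 31.9% ± 8.66 and 20.6% ± 5.30 (SD, n = 6 lists). Upstream minus downstream coverage was 1.51 percentage points at genes of pairs and -12.0 at other genes, a difference of 13.5 ± 2.67 (SD, 11.2 to 18.7 over the 6 lists). The upstream side of one gene of a pair is largely the downstream side of its partner, so values near 0 for the pairs follow from how a pair is built, and the difference is given as a description.

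Of the marked pairs, 44.3% (37.6 to 58.3 over the lists) had separate peaks on both sides, that is, at least 1 bp of a peak in the first 500 bp of each gene, which need not reach the start sites. In 42.9% (15.1 to 54.7) a peak lay on 1 side only, and in 12.6% (5.13 to 26.5) a single peak spanned both start sites. The last 2 shares were farthest apart between control 3 and 4xIOP 3. In control 3, the longest, 15.1% of marked pairs had a peak on 1 side only, and in 4xIOP 3, the shortest, 54.7%. A single peak over both start sites was seen in 13.4%, 7.11% and 26.5% of marked pairs in the control lists and in 13.5%, 9.94% and 5.13% in the 4xIOP lists. The groups overlapped, with means of 15.7% ± 9.87 and 9.53% ± 4.21 (SD, n = 3) and a difference of -6.12 percentage points (two-sided exact permutation test, p = 0.5), or -0.717 without control 3. Among control 1, 4xIOP 1 and 4xIOP 2, taken as the lists of longer fragments because their shortest peaks were 220 to 232 bp against 187 to 195 bp in the others, it was -1.66, and among the other 3 lists -11.7. With 3 lists against 3 this exact test cannot go below p = 0.1.

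Pairs were then divided by the distance between their start sites. Of 312 pairs at most 100 bp apart, 91.0% ± 2.81 had a peak. The share was 86.2% ± 4.08 of 206 pairs over 100 and up to 200 bp apart, 83.7% ± 4.89 of 100 pairs up to 300 bp, 89.4% ± 5.16 of 66 pairs up to 500 bp and 75% ± 2.82 of 70 pairs up to 1000 bp (SD, n = 6 lists). The highest list of the widest class was at 80.0% and the lowest list of the closest class at 88.1%, but the lowest list of the pairs over 200 and up to 300 bp apart was at 79%, so those classes overlapped. The widest class also held the fewest CpG island-like windows, 61.4% against 87.5% in the closest class. The part of base composition in this difference was not tested. A single peak spanned both start sites in 19.3% of marked pairs in the closest class and in 3.08% in the widest (7.80 to 41.1 and 0 to 8.93 over the lists). A single peak can span both start sites only if it is longer than the distance between them, and the median peak was 357 to 450 bp long. The share was already 8.39% in pairs over 100 and up to 200 bp apart and 9.76% in those up to 300 bp. The part of the distance in this difference was not tested. A peak on 1 side only was found in 37.9% and 64.8% (11.4 to 49.6 and 37.5 to 78), and both ranges overlapped.

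The closest pairs were Bag4/Lsm1 and Slc7a6os/Prmt7, both 1 bp apart, and Dhrs1/Nop9, 3 bp apart, and all had a peak in 6 lists. Of the widest, Btf3l4/Txndc12 (987 bp) and Asphd1/Sez6l2 (981 bp) had a peak in 6 lists and Zfyve26/Rad51b (978 bp) in 4. Just beyond the limit of 1000 bp, Serpina7/4930513O06Rik (1007 bp) had a peak in 0 lists, and Gpr108/Trip10 (1009 bp) and Sgsm2/Tsr1 (1011 bp) in 6.

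**Figure D4:**
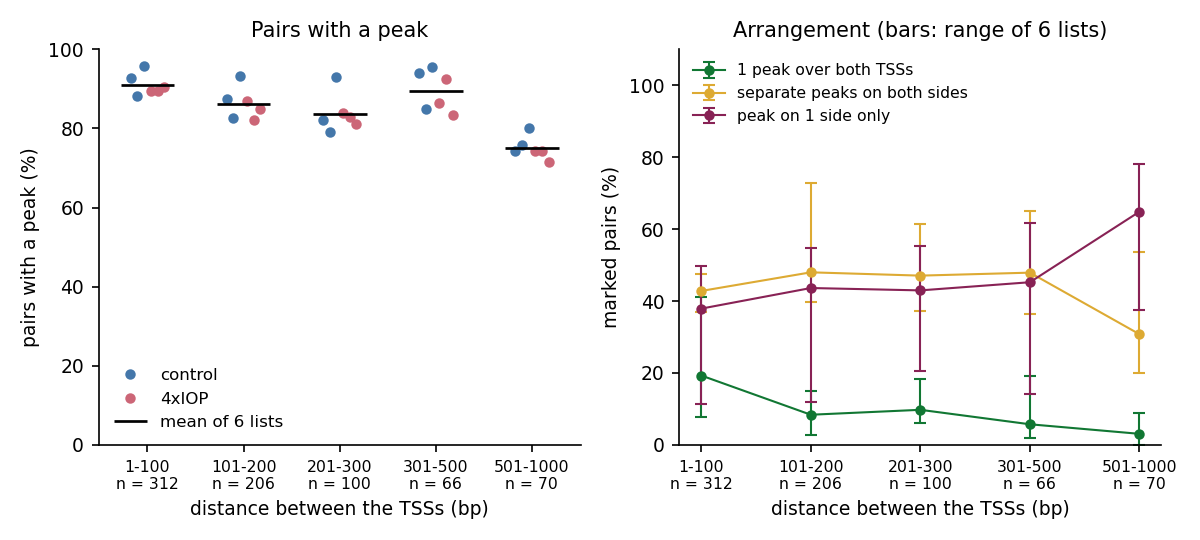
Left, share of pairs with a peak (%) by the distance between the start sites in bp, with points for the 6 lists and lines for their mean. Right, share of marked pairs (%) with a single peak over both start sites, with separate peaks on both sides or with a peak on 1 side only, as means with the range of 6 lists. The share with a peak is 91.0% in the closest class and 75% in the widest, and the single peak over both sites drops from 19.3% to 3.08%.

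Some pairs were marked on the same side in every retina. In 56 of the 579 pairs with a peak in all 6 lists, only 1 and the same gene carried a peak on its side in all 6, and the other gene carried none in any list. In 74 pairs separate peaks lay on both sides in all 6 lists, in 20 pairs a single peak spanned both start sites in all 6, and in the other 429 the arrangement differed between lists. Without control 3 the number with a peak on the same side only was 118, since this list often added a peak on the second side. Ordered by mean percentile, the first 6 of the 56 carried the peak at Tbc1d22b and not at Gm17657, at Dzip3 and not at Cip2a, at Spsb3 and not at Nubp2, at Rps6kb1 and not at Tubd1, at Arcn1 and not at Ift46, and at Cdc27 and not at Myl4. Dzip3 encodes a ubiquitin ligase and Cip2a an inhibitor of protein phosphatase 2A. Rps6kb1 encodes the ribosomal S6 kinase, Tubd1 delta-tubulin, Cdc27 a subunit of the anaphase-promoting complex and Myl4 a muscle myosin light chain. This order and the examples that follow were chosen after the values were seen. The peak lay at Rhno1 and not at Foxm1, a transcription factor of mitotic genes, at Rsrc2 and not at the kinetochore gene Kntc1, and at 1110059G10Rik and not at the mitotic kinesin gene Kif15. Other genes of mitosis did carry a peak of their own, with Mad1l1 in 6 lists, Zwilch in 5 and Kif20a in 4, and no list of cell cycle genes was counted. Tissue-restricted partners without a peak included Foxa3 beside Sympk and Actn3 beside Zdhhc24.

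The same comparison was made for gene lists that had been drawn up from general knowledge, by asking in how many lists each listed gene and its partner had a peak in the first 500 bp. Over all 1487 genes of pairs, 45.7% had such a peak in all 6 lists and 13.3% in none. Of 28 pairs with 1 gene of DNA repair and replication, the listed gene had its own peak in all 6 lists in 4 pairs and its partner in 18. The listed gene had none in any list in 8 pairs and the partner in 0. The partner had the peak in more lists in 21 of the 28 pairs, the listed gene in 5, and in 2 they were equal. Rpa3 counts with 2 partners here.

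The 8 genes of this list with no peak of their own were Gins1, a subunit of the replicative helicase, Pole, the catalytic subunit of DNA polymerase epsilon, Chek2, a checkpoint kinase, Lig4, the ligase of end joining, the homologous recombination genes Brca1, Rad51b and Xrcc3, and Fancb of the Fanconi anaemia core complex. Their partners had a peak in 3 to 6 lists. The 4 with a peak in all 6 lists were Xrcc1, a scaffold of single-strand break repair, Nthl1, a base excision glycosylase, Rad51c and Eme2. The windows of this group had a peak in 94.8% of 29 pairs per list (89.7 to 100), beside 87.1% of all pairs and 70.8% of the 77 listed genes outside pairs. The listed gene had one of its own in a mean of 2.82 lists and its partner in a mean of 5.32. Divergent genes made up 27.4% of the list, against 6.78% of all protein-coding genes.

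Genes of the respiratory chain showed the opposite arrangement. Of 23 pairs, the listed gene had a peak in all 6 lists in 18 and its partner in 8. The listed gene was ahead in 13 pairs, the partner in 5, and 5 were equal. The pairs of this list were marked in 99.3% per list (95.7 to 100), beside 87.1% of all pairs and 84.3% of the 71 respiratory chain genes outside pairs. Among the strongest were Atp5c1/Kin (mean percentile 97.6), Sdha/Ccdc127 (97.0) and Fam126b/Ndufb3 (94.8), which hold genes of ATP synthase, succinate dehydrogenase and complex I. Of 15 pairs with 1 chaperone gene, the listed gene had a peak in all 6 lists in 12 and its partner in 7. For the transport particle and vesicle traffic list these counts were 11 and 6 of 15 pairs, for genes of cilia and photoreceptors 12 and 11 of 22, for the mitochondrial ribosome 7 and 7 of 18, for the cytosolic ribosome 4 and 4 of 9, and for tRNA synthetases 1 and 2 of 5. These counts carry no test.

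**Figure D5:**
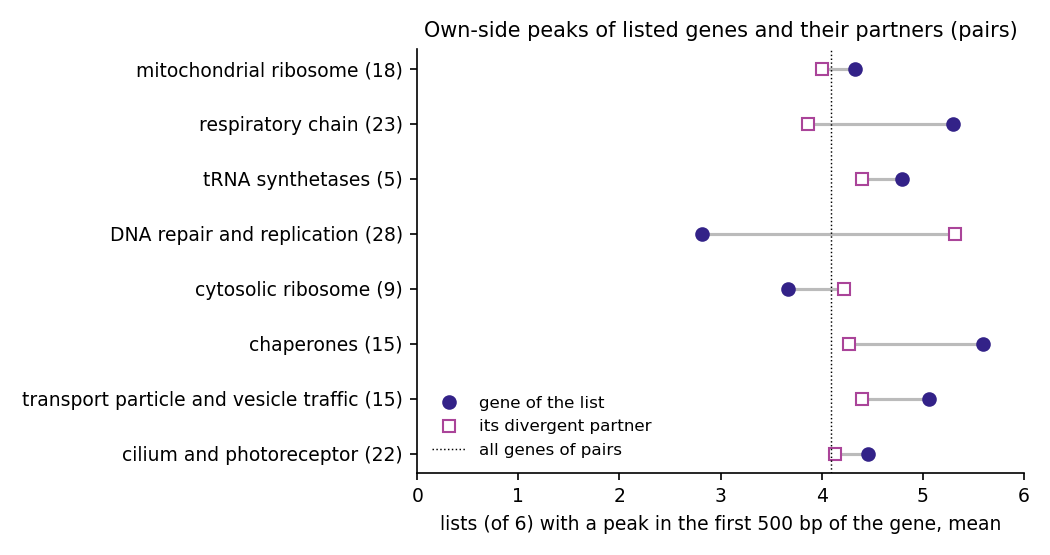
Mean number of lists (of 6) with a peak in the first 500 bp of the gene, for genes of 8 gene lists (filled) and their divergent partners (open), with the number of pairs in brackets and the mean over all genes of pairs (4.10) as a dotted line. Genes of DNA repair and replication lie at 2.82 against 5.32 for their partners, and respiratory chain genes at 5.30 against 3.87.

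Among cilium and photoreceptor genes, the peak lay on the side of Pde6d, a carrier of prenylated photoreceptor proteins, in 6 lists and on that of its partner Cops7b in 0. Ift46 of the intraflagellar transport complex had its own peak in 0 lists and its partner Arcn1 in 6. Rom1, of the photoreceptor disc rim, and its partner Eml3 both had one in 6. The strongest pairs of this list were Cep76/Psmg2 (mean percentile 99.1), Arcn1/Ift46 (96.1), Tctn3/Entpd1 (93.7) and Faap24/Cep89 (89.4).

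Histone genes were the list with the largest part in divergent pairs, 27 of 78 genes (34.6%). Of its 14 pairs, mostly of an H2A and an H2B gene, 9 had a peak in all 6 lists, beside 76.8% of all pairs. The strongest was Hist1h2ap/Hist1h2br (mean percentile 96.1), and Hist1h2ba/Hist1h2aa had no peak in any list. These genes have near-identical copies, and how reads that fit several copies were treated is not given in the sources used here. Mitochondrial ribosome genes had 18 of 78 in pairs (23.1%), with 16 of the 18 pairs marked in all 6 lists, led by Zfp661/Mrps5 (97.7) and Ska3/Mrpl57 (93.8 mean percentile). Of 82 cytosolic ribosomal protein genes, 9 stood in pairs, and 6 of these pairs were marked in all 6 lists. Per list, 78.6% of the histone pairs, 97.2% of the mitochondrial ribosome pairs and 79.6% of the cytosolic ribosome pairs had a peak, beside 87.1% of all pairs. Of the stress response lists, none of 72 TNF and NF-kB genes, 2 of 49 senescence and secretory genes and 2 of 46 interferon and antigen presentation genes stood in a pair, the last 2 being 4.08% and 4.35% beside 6.78% of all protein-coding genes. These counts hold for the lists as drawn up, which are not complete. Tradd, an adaptor of TNF receptor signalling that was not on the list, stood in the pair Tradd/Fbxl8.

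Among 24 head-to-head pairs looked up by name from general knowledge, 8 were members, 8 had overlapping 5′ ends in this annotation (among them Hspd1/Hspe1, Col4a1/Col4a2 and Surf1/Surf2), and the rest were further apart or not head to head. Col4a4/Col4a3, which encode collagen chains of the glomerular and other basement membranes, had no peak in any list. The other 7 had a peak in all 6 lists, and the sides differed. Brca1, of homologous recombination, had its own peak in 0 lists and the autophagy receptor gene Nbr1 in 6. The DNA damage kinase gene Atm had one in 1 list and Npat, an activator of histone genes, in 6. Tsc2, a repressor of mTORC1 signalling, had one in 4 lists and Nthl1 in 6. Mcm4 of the replicative helicase had one in 4 and Prkdc, the catalytic subunit of DNA-dependent protein kinase, in 5.

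The mean percentile of these 7 ran from 43.6 at Atm/Npat to 88.3 at Mcm4/Prkdc, and on the fold scale their groups overlapped. At Brca1/Nbr1 the fold enrichment was 4.51, 6.001 and 6.98 in the control lists and 5.99, 5.15 and 5.87 in the 4xIOP lists. At Atm/Npat it was 3.74, 4.16 and 4.57 in control and 4.03, 3.10 and 3.85 in 4xIOP. In both of these pairs the range of the 4xIOP lists overlapped that of the control lists. At Mcm4/Prkdc it was 5.33, 6.32 and 10.3 in control and 7.46, 7.37 and 5.30 in 4xIOP, again with overlap.

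The 50 pairs without any peak held few CpG island-like windows, 18% against 91.0% of the pairs marked in all 6 lists, and their median CpG ratio was 0.351 against 0.783. Examples, chosen after their values were seen, are Duox2/Duoxa2 of thyroid hormone synthesis, Smyd1/Cd8b1 of muscle and T cells, Bhmt2/Dmgdh of liver methyl-group metabolism and Pecam1/Milr1, whose Pecam1 marks endothelium. Sncg/Mmrn2 was also without a peak, although Sncg is a marker of retinal ganglion cells. Broadly used genes were also among them, such as Tradd, an adaptor of TNF receptor signalling, and the corepressor gene Trim28, the cyclin gene Ccnt1 and the ribosomal protein gene Rps2, the last 3 with another TSS that had a peak in all 6 lists. In 17 of the 50 pairs another annotated TSS of one of the genes had a peak in at least 1 list, and in 8 of these in all 6, so that the gene had a marked start outside the window of the pair.

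Between the labelled groups, none of the tested differences at divergent promoters passed its test, and the exact test over 3 and 3 lists cannot do so. Of the pairs, 88.5% ± 4.65 had a peak in control retinas and 85.7% ± 0.578 in 4xIOP retinas (SD, n = 3), a difference of -2.79 percentage points (two-sided exact permutation test, p = 0.4). Of the other promoters, 42.2% ± 5.50 had one in control and 37.2% ± 1.38 in 4xIOP retinas, a difference of -4.92 points (exact permutation test, p = 0.2), or -1.80 without control 3. The gap between the 2 classes was 46.3 ± 1.71 points over the control lists and 48.4 ± 0.804 over the 4xIOP lists (SD, n = 3), a difference of 2.13 (exact permutation test, p = 0.2), or 1.40 without control 3. This value depended on the setting, with 0.191 for equal-sized lists (exact permutation test, p = 0.8), 0.016 for peaks of a −log10 q of at least 5 (p = 1.0 in the same exact test) and 4.73 in CpG island-like windows (p = 0.2). It was -0.063 among the 3 lists of longer fragments (control 1, 4xIOP 1 and 4xIOP 2) and 3.71 among the 3 lists of shorter fragments. Without control 3, the longest list, the difference in the share of pairs with a peak was -0.398 percentage points. With every list cut to its strongest peaks, as many as the shortest list holds, it was -1.59 (exact permutation test over 3 and 3 lists, p = 0.9). Gene by gene, 72.5% of genes of pairs had a peak in their first 500 bp in control and 64.1% in 4xIOP retinas, a difference of -8.45 points (exact permutation test, p = 0.4). Without control 3 the control mean was 65.8% and the difference -1.70 points.

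No pair had a peak in all control and no 4xIOP lists, and none in all 4xIOP and no control lists. Over all 21193 promoters these were 0.373% and 0%. More control than 4xIOP lists were marked in 75 pairs (9.95%, against 13.4% of all promoters), and more 4xIOP than control lists in 25 pairs (3.32%, against 1.98%). Of the 15 pairs with a peak in a single list, 14 had it in control 3. Without control 3, by the share of lists marked in each group, these counts were 61 (8.09%, against 8.51% of all promoters) and 50 (6.63%, against 4.69%).

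The pairs nearest to a split were named after their values were seen. In 4 pairs (0.531%, against 0.156% of all promoters with such a split) all 3 4xIOP lists and only control 3 had a peak. They were Cks1b/Shc1, Slc30a7/Extl2, Mmab/Mvk and Lrrc63/Lcp1, and without control 3 they would be marked in 4xIOP alone. Their summits were small. At Lrrc63/Lcp1 they held 16, 13 and 17 fragments in the 4xIOP lists and 18 in control 3, and the peak lay on the side of Lrrc63 in all 4 of these lists and on that of Lcp1, which encodes the leukocyte protein L-plastin, in 0. In 10 pairs (1.33%, against 1.21% of all promoters) all 3 control lists and only 1 4xIOP list had a peak. One was Wrap53/Trp53, of a telomerase component and the tumour suppressor p53, with 33, 32 and 58 fragments at the summit in the control lists and 24 in 4xIOP 3. The peak there lay in the first 500 bp of Wrap53 and not of Trp53. Ifit1bl2/Ifit1, of interferon-induced genes, was the only pair with a peak in 4xIOP and none in control, in 1 list (4xIOP 3, 17 fragments).

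Signal strength was compared by limma across the 6886 promoters with a peak in all 6 lists, on the highest fold enrichment turned into normal scores within each list. Of the 579 divergent pairs tested, 0 were called higher and 0 lower in 4xIOP after Benjamini-Hochberg adjustment (0% and 0% of all promoters tested, smallest adjusted p = 0.999). At an unadjusted limma p below 0.05 there were 22 pairs (3.80%), 13 higher and 9 lower, against 3.11% of all promoters. Over the alternatives this number was lowest without control 1, with 9 pairs (1.55%, against 2.02% of all promoters). It was highest with the fragment length class in the fit, with 31 pairs (5.35%, against 3.91%). The share of pairs lay above that of all promoters in some settings and below it in others. The median difference in score was 0.02 over the pairs and 0.01 over all promoters tested. Differences well above their standard error were not called either, such as 1.41 ± 0.415 at Faap24/Cep89. The 0 calls therefore do not show that the mark was unchanged.

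The pairs with the smallest p were therefore not called. At Faap24/Cep89, of a Fanconi anaemia core protein and a centrosomal protein, the fold enrichment was 6.94, 4.34 and 8.04 in the control lists and 8.26, 8.41 and 7.26 in the 4xIOP lists, values that overlap on the fold scale. The score difference was 1.41 ± 0.415 (SE, limma adjusted p = 0.999). At Fbxl6/Slc52a2, whose Slc52a2 encodes a riboflavin transporter, the fold was 4.03, 4.19 and 6.21 in control and 5.45, 5.89 and 5.52 in 4xIOP. At Plcd3/Acbd4 it was 2.98, 3.11 and 4.30 in control and 4.07, 4.05 and 4.45 in 4xIOP. On the fold scale, control 3 lay within or above the range of the 4xIOP lists in each of these 3 pairs. On the scores that limma tested, every control value lay below every 4xIOP value in all 3, with at most 0.79 in control and at least 1.27 in 4xIOP at Faap24/Cep89. The pairs were picked for their small limma p on these scores, so this separation comes with the choice.

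In the other direction, Gpalpp1/Nufip1 had a fold of 6.35, 6.39 and 9.85 in control and of 5.60, 4.93 and 4.61 in 4xIOP, with a score difference of -0.998 ± 0.386 (SE, limma adjusted p = 0.999). Lrrc51/Numa1, whose Numa1 organises the mitotic spindle, had 6.12, 4.10 and 6.005 in control and 3.98, 3.92 and 3.03 in 4xIOP. Hist1h2ac/Hist1h2bc had 5.56, 4.47 and 6.79 in control and 3.99, 3.65 and 4.03 in 4xIOP. In these 3 pairs every control value was above every 4xIOP value on the fold scale and on the scores, and none passed the adjusted threshold. They too were picked for their small limma p, so the separation is no support for a difference. How many other pairs separate in this way was not counted.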

How the data were processed

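The 6 peak lists deposited by the authors were used as they stand. Per the labels, the genome build was mm10, which has the coordinates of GRCm38, and the submitters' processing notes name STAR 2.7.8a, MACS2, HOMER, edgeR and bedtools 2.29.2 without their roles. Settings of the ChIP-seq peak calling and the use of an input are not given in the sources used here. Each deposited list gives the fold enrichment at the summit, its −log10 p-value and its −log10 q-value, all against the caller's background. The lowest −log10 q was 1.31 to 1.40.

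Pairs and other promoters were built from GENCODE vM21, and 12 other promoters that overlapped a window of a pair were left out. A promoter had a peak if at least 1 bp of a peak lay in its window. Fragments at a summit were recovered from fold and −log10 p as whole numbers, within 0.005 in −log10 p, for over 99.9% of peaks. The depth that this gives was 87.4 to 173 background fragments per 10000 bp. Reads that form no peak were not analysed here, so no share has a counting interval, and the number of lists limits the precision.

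Group differences were tested by an exact permutation test over lists (smallest p 0.1), class differences by an exact sign-flip test over 6 lists (smallest p 0.031), and signal by limma 3.58.1 in R 4.3.3, which was tested on simulated data. The labels give 3 replicates per group and do not say whether they are separate animals, while a legend of the study counts 2 biological replicates for H3K27ac profiles, without saying which. All 3 lists were used, and p-values measure the spread between these samples. Peak lists were handled in Python 3.11.15 with NumPy 2.4.6 and pandas 2.3.3.

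The rule for the pairs, the gene lists and the tests was chosen with earlier results of these data known. Named pairs are textbook pairs, the 5 of highest mean percentile, the 3 of smallest limma p in each direction, the 3 closest and 3 widest, pairs of 12 gene lists in order of mean percentile, and pairs said to be chosen after their values were seen. A few pairs that meet this rule are not reported here. Alternatives were the window, the summit, stricter or equal-sized lists, closer pairs, CpG island-like windows, single lists left out, the replicate number as a block, fragment length classes and other scores.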

Additional observations from a re-analysis of the deposited data

How the results depend on the processing

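The class differences kept their direction under every alternative that was run for them. Leaving out 1 list at a time, the difference in the share with a peak was 47.0 to 47.9 percentage points, that in median percentile 2.84 to 3.51 and that in upstream minus downstream coverage, which follows in part from how a pair is built, 12.4 to 13.9. With 5 lists the exact sign-flip test cannot go below p = 0.0625, so these fits could not pass 0.05. Under the other alternatives the share and the percentile difference, where it was run, stayed at an exact sign-flip p = 0.031, with the share difference down to 17.8 for CpG island-like windows and to 30.8 gene by gene (the latter added after the data were seen), and the percentile difference down to 1.61 for peaks with a −log10 q of at least 5, 1.81 for equal-sized lists and 1.98 for CpG island-like windows.

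The exact tests of group differences cannot pass 0.05, so their p-values say nothing on stability. The smallest possible exact p, 0.1, was reached by the share without control 2 (-5.04) and by the gap between classes without control 1 (3.07). Leaving out 1 list, the difference in the share of pairs with a peak was -5.04 to -0.398 percentage points, that in the gap between classes 1.40 to 3.07 and that in the share with a single peak over both start sites -10.4 to -0.717. Leaving out control 3 moved the first and the last of these most, and leaving out control 1 the gap. The difference in the gap between classes was -0.063 among the 3 lists of longer fragments (control 1, 4xIOP 1 and 2), against 3.71 among the 3 of shorter fragments, and that in the single-peak share -1.66 and -11.7. The cause was not tested. In the 2 lists that carry the name of their label, the differences were -7.96, 4.23 and -21.3.

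Pairs with a peak in all control and no 4xIOP lists numbered 0, 1 in shorter windows centred between the start sites, 4 at the stricter −log10 q and 0 to 6 with 1 list left out. Those in all 4xIOP and no control lists numbered 0 to 4 with 1 list left out, with 4 without control 3. limma called 0 pairs in either direction under every alternative, with 1 list left out (0 to 0) too. Fewer lists have to be met in the fits that leave one out, which by itself allows more such pairs. The share of all promoters with such a split was counted for the main setting only (0.373% and 0%). The counts of split pairs under the alternatives therefore have no background beside them.

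Same-numbered lists did not deviate together (correlations of deviations from the group mean of -0.01, -0.05 and -0.15 over promoters), so the data gave no sign of pairing by number. Whether same-numbered lists come from the same animal is unknown. With the replicate number as a block the differences were -2.79 (exact sign-flip p = 0.5), 2.13 (p = 0.5) and -6.12 (p = 1.0), and limma called 0 and 0. With 3 pairs this exact test cannot go below 0.25.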
